A study of Mus musculus with 13 samples.

Results

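The 45 genes described here code for guidance cues and their receptors: 11 Eph receptors, 7 ephrins, 10 semaphorins, 8 plexins and neuropilins, 5 Slits and Robos, and 4 netrins and Unc5 receptors. They were chosen by name from these families and found among the 55487 genes of the count tables. RNA-seq of mouse embryonic fibroblasts (MEFs) gave 13 libraries. WT libraries were made from primary cells (n = 3, clones 3, 4 and 5) and from 1 immortalized line per clone (n = 3). Libraries labelled Prkd3-/- were made from primary cells (n = 3, clones 13, 14 and 15) and from immortalized lines (n = 4), of which lines 13 and 13a both came from clone 13. All groups were grown in medium with 10% FCS. The lines arose from serially passaged cells that reached senescence and were then kept in 20% FCS until colonies grew out, and no other transgene or drug was named for any group. The age of the embryos was not given in the sources used here, and each line is a culture that grew out as colonies, so the groups compare a few lines with cells of the same embryos. What immortalization changed in each genotype is the question of the comparison.

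Guidance genes were first known from growing axons, which turn toward or away from cues on nearby cells. Ephrins are cell surface ligands of Eph receptor kinases, and signal in both directions at cell contacts. Semaphorins signal through plexins, with neuropilins as co-receptors for the secreted class 3 members. Slits are secreted ligands of Robo receptors, and the laminin-like secreted netrin Ntn1 binds Dcc and Unc5 receptors. Outside the nervous system the same genes are known for cell sorting, migration and vessel patterning, and mesenchymal cells express many of them.

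In WT cells, 3 guidance genes fell and 0 rose on immortalization: the secreted semaphorin Sema3d, the transmembrane semaphorin Sema5a and the transmembrane ligand Efnb3. The call required an edgeR adjusted p-value, taken over every tested gene, under 0.01 and a |Log2FC| of 1 or more. Of the 45 genes, 44 passed the filter on low counts in each genotype, the exception being Ephb1, with 0 to 10 counts per library. The 3 genes called lower compare with 1.76% of all 19836 tested genes called lower and 0.0605% called higher. At an unadjusted p under 0.05, 14 guidance genes were lower and 1 was higher, against 11.4% and 8.25% of all genes. DESeq2, the test to which the study applied these thresholds, called 7 of 45 lower and 0 higher (background 3.69% and 0.363% of 33613 genes). The 7 were Epha3, Epha5, Ephb2, Efnb3, Sema3d, Sema3e and Sema5a. The DESeq2 background holds every gene with a count in a WT library, including genes that the edgeR filter left out. Its shares are thus diluted by low genes and are not on the same base as those of edgeR, since 1239 genes in all were called lower. In the Prkd3-/- cells edgeR called 0 of 44 guidance genes and 0 of 20298 genes in all (background 0.0% in each direction). There, 5 guidance genes were lower and 0 higher at an unadjusted p under 0.05 (4.34% and 2.22% of all genes). In that genotype limma called 0, and DESeq2 called 1, Sema3d (background 0.469% of 34743 genes, again unfiltered).

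Depth ranged from 55436367 to 90654323 counts per WT library and from 35273408 to 100441756 per Prkd3-/- library, where 3 counts correspond to at most 0.0851 CPM (counts scaled to a common library size). The WT primary libraries differed pairwise by a coefficient of variation (CV) of 1.46% to 2.31% after sampling noise was taken off, whereas Prkd3-/- primary library 14 differed from libraries 13 and 15 by 15.7% and 14.5%, and those from each other by 6.28%. All 10 fibroblast markers were counted in every library, but not at like levels. Col1a1 was at 7787 CPM or more throughout, whereas Lum, at 165 to 192 CPM in WT primary libraries, was at 0.0483 in WT line 3 and 0.297 in Prkd3-/- line 15. Dcn was at 0.661 CPM in WT line 3 and at 0.382 and 0.701 in Prkd3-/- lines 13 and 15, and Thy1 at 4.85 in line 13 against 453 to 811 in its primary group. The summed level of 8 macrophage markers, all 8 of them lower in the lines of both genotypes (6 of 8 called in WT, 0 of 8 in Prkd3-/-), was 606 to 639 CPM in WT primary libraries and 31.8 to 92.2 in WT lines, so it moved with every WT difference given here. In Prkd3-/- primary libraries 13, 14 and 15 it was 82.7, 990.3 and 198, and in the lines 10.2 to 169.6, with C1qa, C1qc, Adgre1, Tyrobp and Mrc1 at 0 in line 13. Of 10 endothelial markers, 6 of 6 tested were lower in WT (1 called) and 5 of 6 in Prkd3-/- (0 called). Their sum was 17.5 to 21.8 CPM in WT primary libraries, 0.709 to 9.33 in WT lines, 16.4 to 37.1 in Prkd3-/- primary libraries and 12.5 to 18.0 in Prkd3-/- lines, with Sox17 at 0 and Pecam1 at or under 0.199 CPM throughout. Skeletal muscle markers were lower for 3 of 3 tested in both genotypes, summing to 54.4 to 57.2 CPM in WT primary libraries and 6.48 to 40.7 in WT lines, and to 30.1 to 67.6 and 3.39 to 41.0 in Prkd3-/-, with Myod1, Myog and Myf5 at 0 in every line. Schwann and neural crest markers were lower for 4 of 4 tested in WT and 2 of 4 in Prkd3-/-. They summed to 3.91 to 4.61 CPM in WT primary libraries and 0.596 to 3.15 in WT lines, and to 0.954 to 3.65 and 0.611 to 12.8 in Prkd3-/-. Epithelial markers (2 of 2 and 2 of 3 lower) summed to 2.41 to 2.81 and 0.209 to 0.542 in WT, and to 1.66 to 2.86 and 0.405 to 4.33 in Prkd3-/-. Neuron markers were lower for 2 of 4 in WT and 3 of 4 in Prkd3-/-. Their sums were 119 to 123 and 59.6 to 188 CPM in WT, and 120 to 161 and 14.4 to 97.9 in Prkd3-/-. Of these 4 lists, 0 genes were called. The part of these cell types in the differences was not tested, and in bulk RNA fewer cells of a type and less RNA per cell cannot be told apart. The gene Prkd3 was counted at 33.6 to 61.0 CPM in libraries labelled Prkd3-/- and at 69.2 to 93.7 in WT, and counts per gene do not show which exons were deleted.

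**Figure D1:**
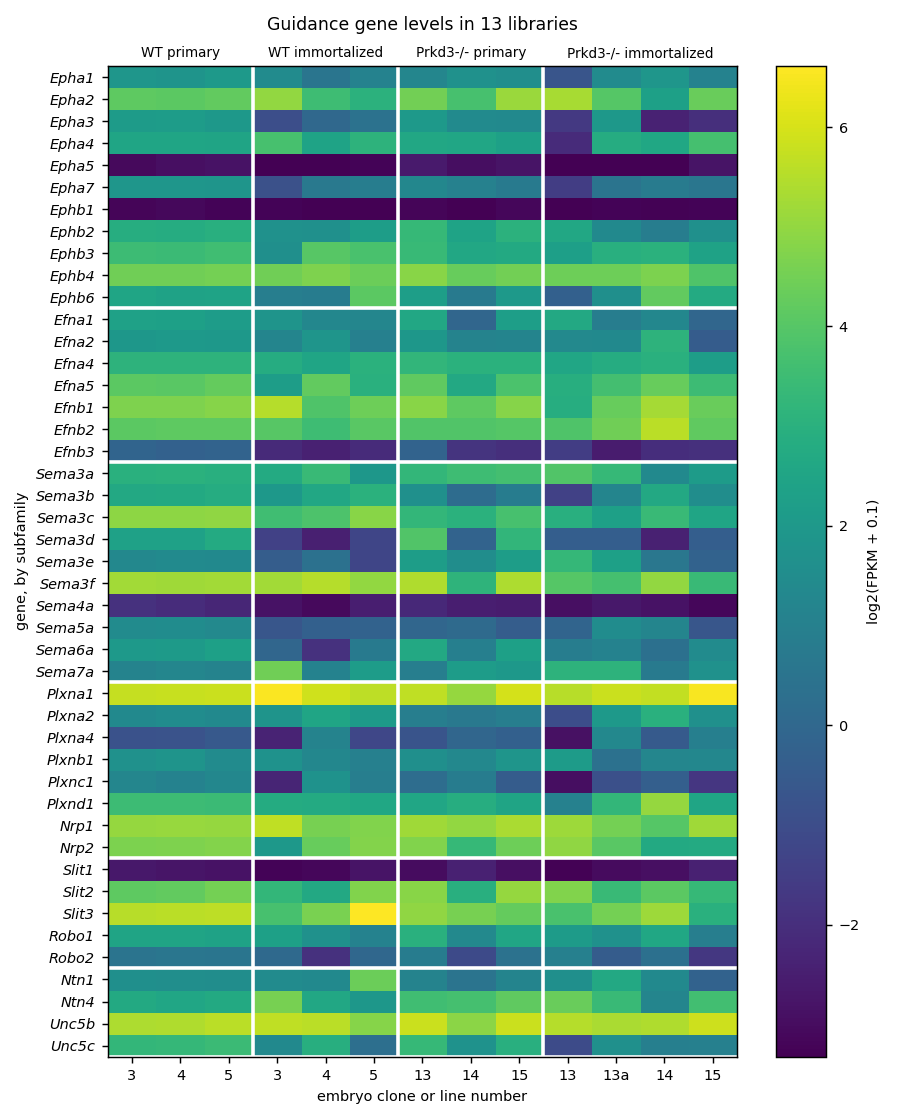
Level of each of the 45 guidance genes (rows, by subfamily) in each of 13 libraries (columns, by group and clone or line number), as log2 of FPKM plus 0.1. The WT primary columns look alike row by row, the other groups vary between columns, and Ephb1, Epha5, Slit1 and Sema4a are dark throughout.

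Levels between genes are given as FPKM, CPM divided by exon length in kilobases, as the mean over 13 libraries. Plxna1, a semaphorin receptor, had the highest level at 58.4 FPKM, followed by the netrin receptor Unc5b at 45.3, the ligand Slit3 at 33.3, the co-receptor Nrp1 at 32.3 and the ligand Sema3f at 30.1. Among Eph genes, the ligand Efnb1 (24.6 FPKM) and the receptors Ephb4 (22.2) and Epha2 (19.6) stood highest. The genes called in WT were not among these, with mean levels of 3.44 FPKM for Sema3d, 1.44 for Sema5a and 0.345 for Efnb3. At the low end, Sema4a, Slit1, Epha5 and Ephb1 were each at or under 0.0735 FPKM.

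The 2 semaphorins among the called genes lie on different chromosomes. Their promoters, 250 bases before to 50 after the start given by RefSeq (GRCm38.p6), are shown with each CpG in capitals. They are shown because edgeR called these genes lower in WT. Sema3d (ENSMUSG00000040254, plus strand, chr5:12383385-12588948 in the count tables' GRCm38 annotation) has its RefSeq promoter at chr5:12382916-12383215. Sema5a (ENSMUSG00000022231, plus strand, chr15:32244810-32696341) has its at chr15:32244563-32244862.
Sema3d: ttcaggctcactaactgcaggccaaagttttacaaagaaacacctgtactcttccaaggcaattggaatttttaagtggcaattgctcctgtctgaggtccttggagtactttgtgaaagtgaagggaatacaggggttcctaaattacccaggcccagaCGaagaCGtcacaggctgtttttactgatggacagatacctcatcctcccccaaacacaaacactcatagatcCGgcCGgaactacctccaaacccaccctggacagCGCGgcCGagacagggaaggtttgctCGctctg
Sema5a: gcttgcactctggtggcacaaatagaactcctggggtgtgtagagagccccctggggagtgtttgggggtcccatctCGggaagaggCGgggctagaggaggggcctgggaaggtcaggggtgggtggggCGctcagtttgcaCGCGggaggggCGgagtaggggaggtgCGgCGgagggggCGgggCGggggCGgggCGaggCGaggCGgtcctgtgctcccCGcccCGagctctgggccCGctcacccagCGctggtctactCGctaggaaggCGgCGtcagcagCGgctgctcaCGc
The Sema3d window held 8 CpG and the Sema5a window 23. Over the 44 RefSeq promoters found for 37 of the 45 genes the median was 21.5 CpG, against 7 over all 32851 promoters, and 84.1% of them had 10 or more CpG, against 43.5% of all. Both strands read the same for CG, and the count describes the window only. Efnb3 (ENSMUSG00000003934) lies at chr11:69554092-69560205 on the minus strand.

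Sema3d, a class 3 semaphorin, had the lowest Log2FC of the guidance genes in both genotypes in edgeR. WT primary libraries 3, 4 and 5 held 43.6, 43.5 and 56.3 CPM, and the WT lines held 2.38, 0.694 and 2.74. Each line was thus at least 17.4-fold under the primary mean and the groups were far apart. The Log2FC was -4.62 ± 0.55 (SE), with an edgeR adjusted p-value of 0.00957, just inside the threshold. In Prkd3-/- primary libraries 13, 14 and 15 the gene was at 129.9, 6.90 and 79.7 CPM, and in lines 13, 13a, 14 and 15 at 5.92, 5.95, 0.766 and 5.91. Primary library 14 stood close to the lines, yet no line reached it. The Log2FC there was -3.97 ± 1.02, with adjusted p-values of 0.514 in edgeR and 0.00310 in DESeq2, and it was -4.51 without primary library 14. Of the Prkd3-/- primary libraries, library 14 had the lowest Sema3d and the highest macrophage sum. It also had the lowest fibroblast sum (32449 CPM against 53832 and 51419 in libraries 13 and 15) and the lowest endothelial sum (16.4 against 37.1 and 36.0). The endothelial markers did not move alike. Tek, Kdr, Erg and Esam were lowest in library 14, whereas Pecam1, Cdh5 and Emcn were highest there (Emcn 9.55 CPM against 0.138 and 0.337). The part of these cell types in the Sema3d level was not tested.

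Sema5a, a transmembrane semaphorin with thrombospondin repeats, fell in WT and took other levels in Prkd3-/-. WT primary libraries held 49.5, 51.9 and 45.9 CPM and WT lines 9.81, 13.5 and 14.6, a clear gap of 3.36-fold to 5.01-fold from the primary mean. The Log2FC was -1.96 ± 0.17, with an edgeR adjusted p-value of 0.00343. Prkd3-/- primary libraries held 16.4, 18.1 and 12.3 CPM and lines 13, 13a, 14 and 15 held 15.5, 51.2, 41.1 and 10.1. Lines 13a and 14 were above all primary libraries, line 13 was among them and line 15 was under them, and the Log2FC of 0.91 ± 0.57 had an adjusted p-value of 0.837. Sema5a was the 1 guidance gene with an unadjusted p under 0.05 for the difference between genotypes, as an interaction over all 13 libraries (3.97% of 21197 genes). Its edgeR interaction term was 2.87 ± 0.68 on the log2 scale, with an adjusted p-value of 1.00, and edgeR called 0 genes (background 0.0%). DESeq2 gave Sema5a an adjusted p-value of 0.0369 and called 38 genes in all, with 1 guidance gene among them. Its background of 0.103% is over 36775 genes, every gene with a count, and so is diluted by low genes.

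Efnb3, an ephrin-B known from the midline of the spinal cord, was a rare transcript that fell in WT. WT primary libraries held 2.64, 2.41 and 2.50 CPM and the WT lines 0.403, 0.288 and 0.427, at least 5.89-fold under the primary mean in each line. The Log2FC was -2.75 ± 0.24, with an edgeR adjusted p-value of 0.00326. In Prkd3-/- cells the primary libraries held 2.57, 0.582 and 0.477 CPM and the lines 0.783, 0.219, 0.469 and 0.499. Only primary library 13 was at the WT primary level, and primary libraries 14 and 15 lay within the range of the lines. The Log2FC of -1.31 ± 0.71 (adjusted p-value 0.815) became -0.14 without that library.

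With the embryo clone as a block, which pairs each line with its primary cells, the adjusted p-values in WT were 0.0505 for Sema3d, 0.0425 for Sema5a and 0.0521 for Efnb3, and 0 of 44 guidance genes and 0 of all genes were called. Without WT primary library 3, 4 or 5 the number called was 0, and without line 3 or line 5 it was 5. No fit with a library left out kept all 3 calls. Sema3d was called without line 4 only, Sema5a without line 3 or line 5 only, and Efnb3 without line 3, 4 or 5. The share of all genes called in these fits is not given, so a loss of calls over all genes cannot be told apart.

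**Figure D2:**
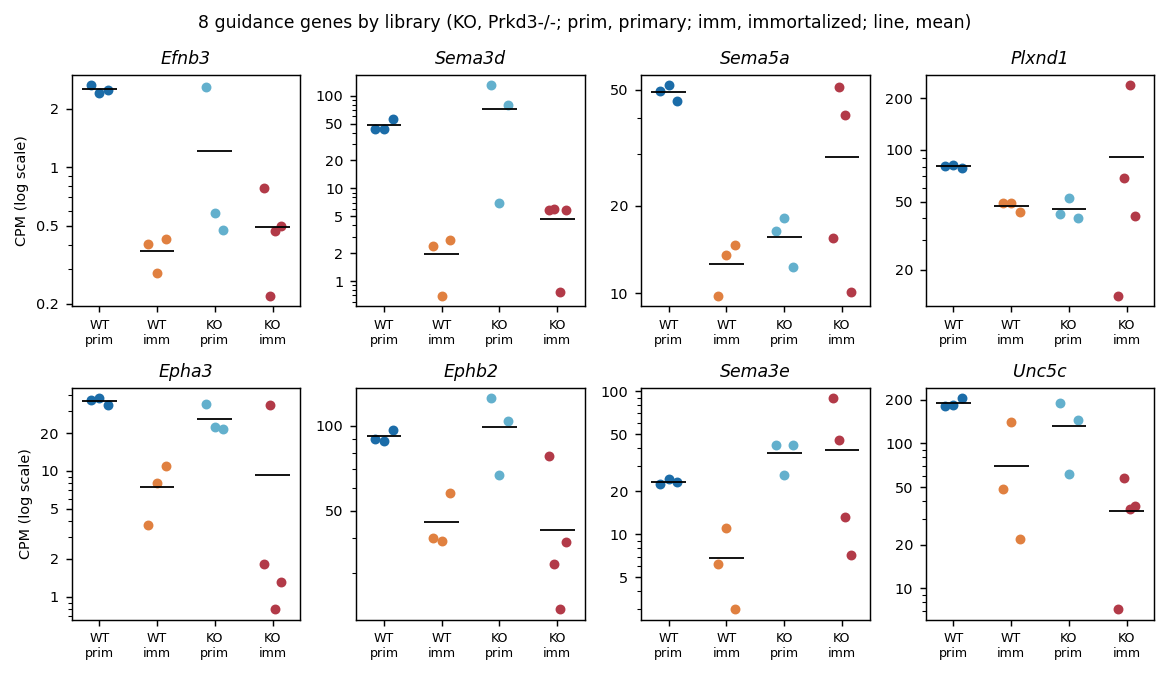
CPM on a log scale in each library (points) with the group mean (bars) for 8 guidance genes, in WT and Prkd3-/- (KO) primary and immortalized cells. For Efnb3, Sema3d, Sema5a, Plxnd1, Epha3, Ephb2, Sema3e and Unc5c every WT line lies under every WT primary library, and in Prkd3-/- Sema3d and Unc5c alone of the 8 have every line under every primary library.

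Near the thresholds in WT stood a plexin and a pair of Eph receptors. Plxnd1, the receptor that binds Sema3e directly, fell in a narrow range, from 80.8, 82.2 and 78.6 CPM in WT primary libraries to 49.1, 48.7 and 43.6 in the lines. Its adjusted p-value of 0.00647 passed, but its Log2FC of -0.77 ± 0.08 did not. Prkd3-/- primary libraries held 42.3, 52.7 and 40.0 CPM, and the lines spread on both sides of them, at 14.1, 68.2, 238 and 41.2. Line 14 decided the Prkd3-/- Log2FC of 1.01 ± 0.85 (adjusted p-value 0.859), which was -0.13 without it.

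Epha3, a receptor of GPI-anchored ephrin-A ligands, was at 36.9, 37.8 and 33.3 CPM in WT primary libraries and at 3.69, 7.97 and 10.9 in the lines. All lines were clearly lower, with a Log2FC of -2.26 ± 0.39 and adjusted p-values of 0.0329 in edgeR, past 0.05 but not 0.01, and 7.96e-07 in DESeq2. Prkd3-/- primary libraries held 34.2, 22.4 and 21.7 CPM and lines 13, 13a, 14 and 15 held 1.83, 33.3, 0.797 and 1.31. Line 13a kept the primary level, whereas line 13, from the same embryo clone, was 14.2-fold under the primary mean. The Log2FC was -1.49 ± 1.26 (adjusted p-value 0.860), and without line 13a it was -4.35 (edgeR adjusted p-value 0.0766).

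Ephb2, a receptor of ephrin-B ligands, was at 90.0, 88.6 and 96.7 CPM in WT primary libraries and at 39.9, 39.1 and 57.7 in the lines. The lines lay 1.59-fold to 2.35-fold under the primary mean without overlap, with a Log2FC of -1.01 ± 0.17 and adjusted p-values of 0.0301 in edgeR and 8.03e-05 in DESeq2. Prkd3-/- primary libraries held 125, 67.1 and 104 CPM and the lines 77.9, 32.2, 22.4 and 38.7, where line 13 overlapped primary library 14. The Log2FC of -1.23 ± 0.43 had an adjusted p-value of 0.676. At an adjusted p-value under 0.05 with the same limit on Log2FC, 5 guidance genes were lower in WT, Epha3 and Ephb2 beside the called genes (background 4.16%).

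Beside Epha3 and Ephb2, a further pair of genes was called in WT by DESeq2 and not by edgeR. Sema3e, a class 3 semaphorin, was at 22.5, 24.2 and 23.4 CPM in WT primary libraries and at 6.20, 11.2 and 3.00 in the lines, with a Log2FC of -1.78 ± 0.46 and adjusted p-values of 0.102 in edgeR and 0.00227 in DESeq2. The Prkd3-/- primary libraries held 42.0, 26.0 and 42.1 CPM and the lines 89.0, 45.8, 13.1 and 7.15. Lines 13 and 13a were above all primary libraries and lines 14 and 15 under all of them, so the Log2FC was 0.06 ± 0.79 (adjusted p-value 0.994). Epha5, an ephrin-A receptor known from neurons, was nearly absent, with 22, 49 and 37 counts in WT primary libraries and 0, 1 and 7 in the lines. Its adjusted p-values were 0.101 in edgeR and 0.00196 in DESeq2. In Prkd3-/- it had 92, 54 and 25 counts in primary libraries and 2, 0, 0 and 56 in lines 13, 13a, 14 and 15, so line 15 alone kept it.

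**Figure D3:**
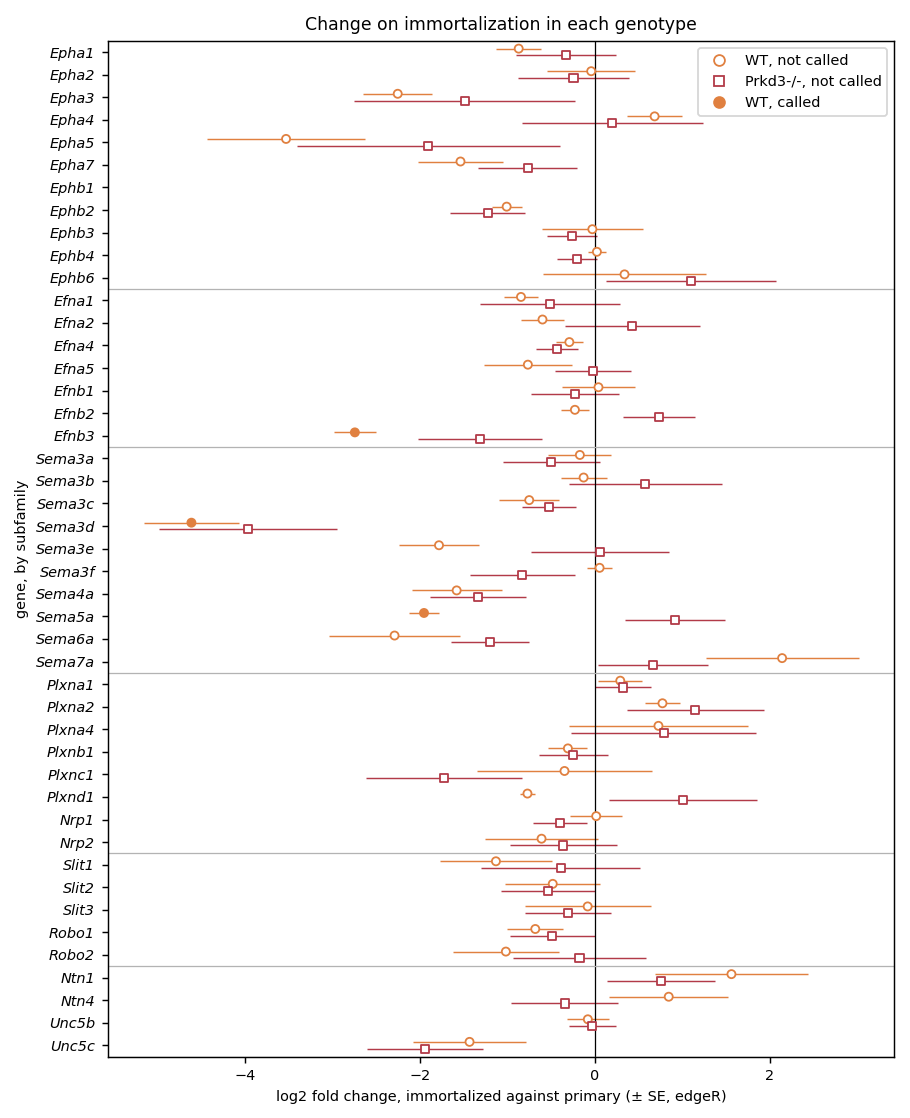
Log2FC of immortalized against primary cells with its SE, by edgeR, for 44 guidance genes in WT (circles) and Prkd3-/- (squares), and filled where called. In WT the filled circles are Efnb3, Sema3d and Sema5a, all left of 0, and no square is filled.

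Gene by gene, the guidance genes lay more often under than over 0 in both genotypes. In WT the Log2FC was negative in 32 of 44 genes, against 45.8% of all tested genes, with a median of -0.42 against 0.04. In Prkd3-/- it was negative in 31 of 44, against 43.1%, with a median of -0.32 against 0.07. In WT, 20 genes had every line under every primary library, against 17.4% of all genes, and 1 gene, Plxna2, had every line above, against 13.9%. In 8 genes every WT line was at least 2-fold under the primary mean, against 6.73% of all genes: Epha3, Epha5, Epha7, Efnb3, Sema3d, Sema3e, Sema5a and Sema6a. In Prkd3-/-, 4 genes had every line under every primary library (Efna4, Sema3d, Sema4a and Unc5c, background 5.26%) and 0 had every line above (4.19%). For Sema4a the gap rests on few counts, 13 in primary library 15 (0.365 CPM) and 22 in line 13a (0.301 CPM). Without primary library 14 the numbers of genes with every line under and every line above were 9 (background 8.97%) and 0 (7.55%).

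The Eph receptors had a median Log2FC of -0.46 in WT, with 7 of 10 negative, and of -0.30 in Prkd3-/-, with 8 of 10 negative. The most abundant receptors did not separate the states. Epha2, an ephrin-A receptor common in epithelia and fibroblasts, was at 82.7, 79.1 and 86.1 CPM in WT primary libraries and at 149, 53.7 and 38.1 in WT lines, and at 105, 61.1 and 161 in Prkd3-/- primary libraries and 184, 73.1, 22.8 and 93.4 in the lines. Line 3 and Prkd3-/- line 13 were above all primary libraries of their genotype, and WT lines 4 and 5 and Prkd3-/- line 14 under all of them. Ephb4, the receptor of Efnb2 known from veins, was at 101, 103 and 108 CPM in WT primary libraries, 101, 119.7 and 96.1 in WT lines, 132, 90.9 and 105 in Prkd3-/- primary libraries and 98.7, 98.4, 117 and 68.5 in the lines, with overlap of the states in both genotypes. Epha7 was at 35.9, 36.1 and 34.7 CPM in WT primary libraries and 4.43, 14.9 and 17.4 in the lines, without overlap (adjusted p-value 0.163). Epha4 held 1.07, 55.8, 47.3 and 104 CPM in Prkd3-/- lines 13, 13a, 14 and 15, so line 13 alone nearly lacked it, 42.2-fold under the primary mean. Ephb6, which lacks kinase activity, was at 64.0 CPM in WT line 5 and 70.8 in Prkd3-/- line 14 but at or under 25.2 elsewhere. Over the 13 libraries Epha1 ranged from 2.02 to 15.3 CPM and Ephb3 from 19.7 to 108. Epha1 shares 6.01% of its exon bases with the gene Zyx, whose part in these counts was not tested.

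Of the 7 ephrins, 6 had a negative Log2FC in WT (median -0.60) and 5 in Prkd3-/- (median -0.23). Efnb1, a transmembrane ligand of EphB receptors, was at 88.7, 88.4 and 95.7 CPM in WT primary libraries, 157, 49.7 and 73.6 in WT lines, 98.8, 60.3 and 97.5 in Prkd3-/- primary libraries and 25.0, 67.0, 132 and 69.6 in the lines. Its lines lay on both sides of the primary libraries in both genotypes. Efnb2, an arterial marker and ligand of Ephb4, was at 116, 119 and 122 CPM in WT primary libraries and at 113, 77.8 and 114 in the lines, each line under each primary library. The Prkd3-/- primary libraries held 101, 104 and 109 CPM and the lines 101, 150.4, 324 and 123. There 3 of 4 lines were above all primary libraries, with line 14 the highest of all 13 libraries. Of the ephrin-B FPKM, Efnb1 made up 58.5% to 59.9% in WT primary libraries, 55.7% to 73.3% in WT lines, 53.3% to 64.7% in Prkd3-/- primary libraries and 32.7% to 52.6% in Prkd3-/- lines. Efna4 had every line under every primary library in both genotypes, by little, and ranged from 7.24 to 14.6 CPM over the 13 libraries. It shares 10.5% of its exon bases with the gene 4731419I09Rik, whose part in these counts was not tested. The other GPI-anchored ephrins ranged from 1.61 to 11.3 CPM for Efna1, from 1.35 to 18.2 for Efna2 and from 18.4 to 78.8 for Efna5.

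The 10 semaphorins had the lowest median Log2FC of the subfamilies in WT, -1.17 with 8 negative, and a median of -0.51 with 6 negative in Prkd3-/-. The summed level of the 6 class 3 genes was 89.1 to 91.7 FPKM in WT primary libraries and 61.1 to 77.2 in WT lines. In Prkd3-/- it was 84.9, 33.0 and 83.5 FPKM in primary libraries 13, 14 and 15 and 24.8 to 52.9 in the lines, so primary library 14 lay within the range of the lines. Sema3f, a repellent that binds Nrp2, was the most abundant semaphorin, at 193, 189 and 193 CPM in WT primary libraries, 197, 234 and 166 in WT lines, 224, 45.6 and 220.3 in Prkd3-/- primary libraries and 82.4, 65.4, 167 and 54.6 in the lines. Its WT lines lay around the primary level, and every Prkd3-/- line lay under primary libraries 13 and 15 but above library 14. Sema3c, known for its part in heart outflow development, was at 217, 219 and 221 CPM in WT primary libraries and 84.1, 102 and 203 in WT lines, all lower. Among Prkd3-/- libraries the primary ones held 67.9, 57.7 and 93.8 CPM and the lines 54.8, 34.8, 74.9 and 40.5, with overlap. Sema3d made up 5.68% to 7.13% of class 3 FPKM in WT primary libraries and 0.105% to 0.454% in the lines, and 2.43% to 17.8% and 0.168% to 2.78% in the Prkd3-/- groups.

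**Figure D4:**
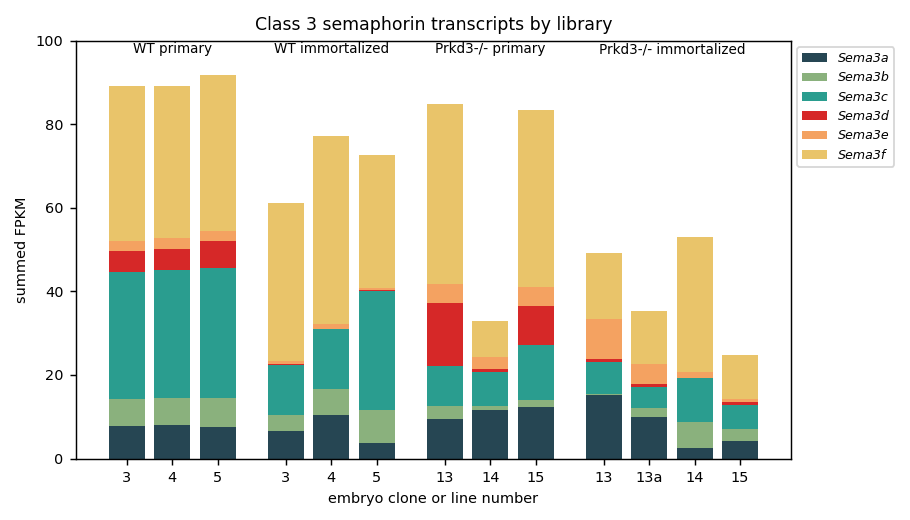
Summed FPKM of the class 3 semaphorins (stacked by gene) in each library, by group and clone or line number. The Sema3d layer is visible in the WT primary bars and in Prkd3-/- primary bars 13 and 15 and is thin in the lines, and the Prkd3-/- primary 14 bar, at 33.0 FPKM, is shorter than those of 3 of the 4 lines.

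Sema3d, Sema3a, Sema3e and Sema3c lie within a stretch of chromosome 5, and did not move alike. Their Log2FC values in WT were -4.62, -0.17, -1.78 and -0.75, and in Prkd3-/- -3.97, -0.50, 0.06 and -0.53. Sema3a, the first semaphorin known to collapse growth cones, ranged from 35.0 to 211 CPM over the 13 libraries and Sema3b from 1.32 to 38.2. The 22 genes within 2 Mb of Sema5a with at least 1 CPM had a median log2 ratio to the primary mean of 0.04 to 0.07 in the WT lines, where Sema5a itself was at -2.31 to -1.74. For Efnb3 the median over 98 neighbours was -0.08 to 0.12 in the WT lines, with Efnb3 at -2.75 to -2.31. For Epha4 in Prkd3-/- line 13 it was -0.19 over 14 neighbours, with Epha4 at -5.27. For Unc5c in the same line the median of 11 neighbours was lower too, at -2.15 (range -4.36 to 0.83) against -4.18 for Unc5c. Sema3d had 4 such neighbours in WT and 5 in Prkd3-/-, with the guidance genes Sema3a and Sema3e among them in both. Their medians were -0.21, 0.42 and -1.05 in WT lines 3, 4 and 5, against -4.27, -5.91 and -4.07 for Sema3d. In Prkd3-/- lines 13, 13a, 14 and 15 they were 0.81, 0.32, -1.97 and -1.15, against -3.59, -3.58, -6.38 and -3.59.

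The semaphorins outside class 3 differed from line to line. Sema6a, a transmembrane ligand of Plxna2 and Plxna4, was at 34.9, 36.8 and 43.2 CPM in WT primary libraries and 7.64, 1.49 and 14.3 in the lines, all lower (edgeR adjusted p-value 0.173). Levels in Prkd3-/- were 55.9, 16.2 and 42.6 CPM in primary libraries and 15.3, 18.0, 10.2 and 23.6 in the lines, which overlapped primary library 14. Sema7a, which is GPI-anchored and binds Plxnc1, was at 6.91, 7.51 and 6.92 CPM in WT primary libraries and 72.9, 6.74 and 14.6 in the lines. Line 3 was far above the rest, and the Log2FC of 2.14 (adjusted p-value 0.257) was 0.59 without it. Its receptor Plxnc1 was nearly absent from that line, at 0.870 CPM against 27.2 in line 4. Sema4a was at or under 0.905 CPM everywhere.

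Among plexins and neuropilins the median Log2FC was -0.15 in WT and 0.04 in Prkd3-/-, with 4 of 8 genes negative in each. Plxna1, a receptor for class 3 and class 6 semaphorins, made up 73.5% to 75.0% of the plexin FPKM in WT primary libraries and 74.8% to 87.4% in WT lines, with 10.7% of its exon bases shared with the gene Gm26811. It was at 489, 499 and 512 CPM in WT primary libraries, 852, 538 and 444 in WT lines, 461, 298 and 563 in Prkd3-/- primary libraries and 421, 509.6, 469 and 823 in the lines. WT lines 3 and 4 lay above and line 5 under the primary libraries, and the states overlapped in Prkd3-/-. Nrp1, the co-receptor of Sema3a and of VEGF, was at 325, 327 and 319 CPM in WT primary libraries, 491, 231 and 260.4 in WT lines, 362, 308 and 399 in Prkd3-/- primary libraries and 349, 227, 156 and 359.8 in the lines. WT line 3 lay above and lines 4 and 5 under the primary libraries, and in Prkd3-/- the lines overlapped primary library 14 only. Nrp2, the co-receptor of Sema3f, was at 294, 304 and 323 CPM in WT primary libraries and 45.7, 234 and 323 in WT lines 3, 4 and 5. Line 3 was apart from the other WT libraries. Prkd3-/- primary libraries held 316, 119 and 252 CPM and lines 13, 13a, 14 and 15 held 369, 199, 76.7 and 78.7. There lines 14 and 15 were under all primary libraries and line 13 was above them. Plxna2 was at 43.2, 46.7 and 43.1 CPM in WT primary libraries and 58.3, 97.7 and 71.2 in the lines, all higher, with a Log2FC of 0.77 ± 0.20 and an edgeR adjusted p-value of 0.0982. In Prkd3-/- its lines held 7.08, 70.0, 133 and 52.7 CPM on both sides of the primary range of 26.3 to 31.4. Over the 13 libraries Plxna4 ranged from 0.496 to 33.5 CPM and Plxnb1 from 11.4 to 41.1.

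All 5 Slits and Robos had a negative Log2FC in WT (median -0.68) and in Prkd3-/- (median -0.39), and 0 passed the test in either, with adjusted p-values of at least 0.313 in WT. Slit2, a secreted repellent, was at 453, 471 and 589 CPM in WT primary libraries, 242, 159.9 and 679 in WT lines, 719.8, 194 and 845 in Prkd3-/- primary libraries and 668, 269, 441 and 254 in the lines. WT line 5 was above all primary libraries and lines 3 and 4 under them, and primary library 14 was the lowest of the Prkd3-/- libraries. Slit3, its relative in mesenchyme, was at 284, 291 and 297 CPM in WT primary libraries, 79.9, 149 and 593 in WT lines, 186, 145 and 116 in Prkd3-/- primary libraries and 81.8, 139, 216 and 47.0 in the lines. Line 5 was again the high line in WT, and the Prkd3-/- lines lay on both sides of their primary libraries. The receptors Robo1 and Robo2 were under every WT primary library in every WT line, at 81.6, 51.6 and 32.9 and 16.0, 2.81 and 15.1 CPM against 89.3, 91.5 and 85.7 and 22.2, 23.3 and 23.2. Slit1 was at or under 0.526 CPM in all libraries.

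Of the 4 netrins and Unc5 receptors, 2 had a negative Log2FC in WT and 3 in Prkd3-/-. Ntn4, a netrin of basement membranes, was at 24.1, 21.5 and 24.3 CPM in WT primary libraries, 88.7, 22.9 and 14.1 in WT lines, 43.7, 47.3 and 67.3 in Prkd3-/- primary libraries and 76.2, 38.9, 8.21 and 45.3 in the lines. WT line 3 and Prkd3-/- line 14 stood apart, the former high and the latter low. Ntn1, the main netrin of the floor plate, was at 18.7, 18.2 and 17.9 CPM in WT primary libraries and 16.9, 15.8 and 128 in the lines, so line 5 alone was high, and the Log2FC of 1.56 (adjusted p-value 0.394) was -0.15 without it. Unc5b, a netrin receptor known from vessels, was at 265, 269 and 301 CPM in WT primary libraries, 315, 301 and 174 in WT lines, 354, 184 and 350.4 in Prkd3-/- primary libraries and 283, 258, 266 and 363 in the lines, and the states overlapped in Prkd3-/- while WT lines 3 and 4 were above the primary libraries and line 5 was under them. Unc5c, a related receptor, was lower in every line of both genotypes. It was at 181, 183 and 204 CPM in WT primary libraries and 48.6, 140.1 and 22.0 in the lines, and at 189, 61.6 and 146 in Prkd3-/- primary libraries and 7.20, 58.1, 35.3 and 37.0 in the lines. Its Log2FC was -1.43 ± 0.65 in WT and -1.94 ± 0.66 in Prkd3-/-, with adjusted p-values of 0.302 and 0.669. The 12 genes described for their high level in their subfamily had adjusted p-values of 0.302 to 0.986 in WT and 0.826 to 0.992 in Prkd3-/-.

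**Figure D5:**
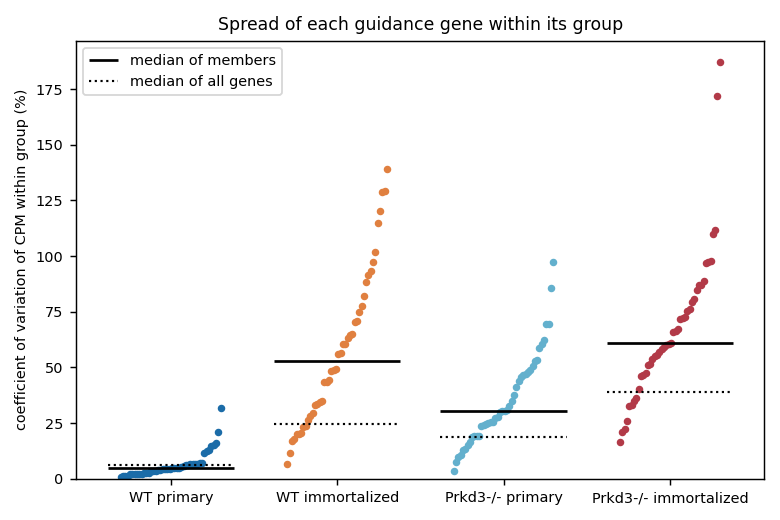
CV of CPM within each group for 44 guidance genes (points, in rising order), with the median of these genes (solid) and of all tested genes (dotted). The solid line is at 4.61% in WT primary and 52.8% in WT immortalized cells, and at 30.3% and 60.9% in the Prkd3-/- groups.

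The lines of a genotype differed from each other more than their primary libraries did. The median CV of the guidance genes was 4.61% in WT primary libraries and 52.8% in WT lines, against 6.20% and 24.5% for all tested genes. In Prkd3-/- it was 30.3% and 60.9%, against 18.9% and 39.0%. The CV was higher in the lines for 44 of 44 genes in WT, against 88.9% of all genes. In Prkd3-/- it was so for 35 of 44, a share not above the 82.8% of all genes. The WT comparison rests on primary libraries that differed pairwise by a CV of only 1.46% to 2.31%. The highest line held at least 4 times the CPM of the lowest for 17 of 44 genes in WT (15.9% of all genes) and for 28 of 44 in Prkd3-/- (30.0%). Single lines were at least 2-fold under the primary mean for 21, 17 and 14 genes in WT lines 3, 4 and 5, against 17.1%, 15.1% and 12.7% of all genes. In Prkd3-/- lines 13, 13a, 14 and 15 they were so for 17, 13, 15 and 18 genes, against 23.8%, 9.05%, 15.5% and 15.1%. Lines 13 and 13a, grown from the same embryo clone, held different levels of Epha3 (1.83 and 33.3 CPM), Epha4 (1.07 and 55.8), Plxna4 (0.496 and 33.5) and Unc5c (7.20 and 58.1), and nearly the same of Sema3d (5.92 and 5.95).

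Other genes of the same families, taken by name, were tested beside them. Of 32, 25 passed the filter in WT and 4 were called lower and 0 higher, against 1.76% and 0.0605% of all genes. The semaphorins Sema4d and Sema5b went from 27.9 ± 2.03 to 1.73 ± 0.300 CPM and from 5.40 ± 0.424 to 0.116 ± 0.0449 (SD, n = 3), with edgeR adjusted p-values of 0.000356 and 0.000905. The netrin-G Ntng1 and the receptor Unc5d, at 2.06 and 0.825 CPM in WT primary libraries, fell to 0.0155 CPM and to 0 counts, with adjusted p-values of 0.00365 and 0.00708. Of 42 intracellular mediators of guidance signalling, all tested in WT, 2 were called lower and 0 higher (the same background): Vav3, a guanine nucleotide exchange factor (Log2FC -3.71, adjusted p-value 0.00311), and the kinase Fes (Log2FC -2.29, adjusted p-value 0.000584). At an adjusted p-value under 0.05 with no limit on Log2FC, Chn2 was lower too, and the actin regulator Enah, the kinase Fyn, the exchange factor Tiam1 and the collapsin response protein Dpysl3 were higher, with Log2FC values of 0.60 to 0.75, against 4.57% of all genes lower and 0.696% higher. In Prkd3-/- edgeR called 0 of 26 other family genes and 0 of 40 mediators.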

How the data were processed

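RNA-seq counts of 45 guidance genes were taken from 2 tables of raw counts per gene that the authors deposited, 1 per genotype, for 6 WT and 7 Prkd3-/- libraries. The authors aligned poly-A read pairs of 100 bases with STAR 2.7.10a (mm10), used SAMtools 1.18 for file handling and counted pairs on Ensembl release 102 genes (GRCm38) with featureCounts of Subread 2.0.6. In the WT table pairs were counted without strand and for every gene they overlapped, so where exons are shared a pair adds to both genes. The counting options of the Prkd3-/- table are not given in the sources used here, but it lists the same genes and lengths.

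Counts were used as deposited. CPM was scaled with TMM factors over all 13 libraries, and FPKM is CPM per kilobase of the tables' gene length. Each genotype was fitted separately with edgeR 4.0.16 (quasi-likelihood, TMM, filterByExpr, robust) in R 4.3.3, over all genes, with Benjamini-Hochberg adjustment and the study's thresholds (adjusted p-value under 0.01, |Log2FC| of at least 1). The study applied these thresholds to DESeq2, not to edgeR. SE is |Log2FC| over the square root of F. The interaction of genotype and state was fitted over all 13 libraries (adjusted p-value under 0.05). Alternatives were DESeq2 1.42.0, scaling by DESeq2 size factors or by library totals, other filters, limma 3.58.1 with a weight per state, a joint fit, the embryo clone as a replicate block, each library left out, lines 13 and 13a summed and other thresholds. The fits were tested on simulated counts. Figures were drawn with matplotlib.

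The lines were paired with primary cells by the clone numbers in the sample names. Deviations of same-clone libraries from their group means correlated at -0.07, 0.03 and -0.08 in WT and at 0.13, -0.31, 0.06 and 0.05 for Prkd3-/- lines 13, 13a, 14 and 15. No pair of replicates agreed within sampling noise (lowest mean chi-square 6.14 per gene). Nothing states that RNA of a clone was extracted more than once, and p-values measure the spread between these libraries. WT primary libraries differed by a CV of 1.46% to 2.31%, against 6.28% to 15.7% between Prkd3-/- primary libraries and 13.4% to 17.0% between WT lines. Whether the small WT primary spread covers that between embryos was not tested. The WT p-values, counts without overlap and CV comparisons all rest on it. Counts of duplicated reads are not independent molecules, so the floor of 3 counts covers counting error only.

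The members and gene lists were chosen with earlier results of these data known. Values in every library are given for members called in either genotype, with an adjusted p-value under 0.05, called by DESeq2 or in the interaction, or among the 2 highest FPKM means of their subfamily. Values of Epha4, Epha7, Ephb6, Sema6a, Sema7a, Plxna2, Nrp2, Unc5c, Robo1, Robo2 and Ntn1 by library were added after they were seen, as was the count without primary library 14. The microarray comparison of the study was not used here. Promoters came from RefSeq (GRCm38.p6), matched by symbol for 37 of 45 genes.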

Additional observations from a re-analysis of the deposited data

Results flagged for a closer look

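In the 4 Prkd3-/- lines, 2 of the 40 guidance genes with at least 1 CPM in a line had a line far from the others, with a gap to the nearest line above 0.829 of the whole range (Dixon's criterion for 4 values, which chance meets in about 1 in 20 groups, or about 2 of 40). Epha3 was at 33.3 CPM in line 13a against 0.797 to 1.83 CPM in lines 13, 14 and 15. Sema3d was at 0.766 CPM in line 14 against 5.91 to 5.95 CPM in the other lines.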

How the results depend on the processing

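The count of 3 guidance genes called lower in WT (1.76% of all genes) was 7 with DESeq2 (3.69% of 33613 unfiltered genes). It was 1 with limma and a weight per state (Sema5a, 0.923%). It was 0 with the embryo as a replicate block (0.0%), 0 in a joint fit of all 13 libraries and 5 at an adjusted p-value under 0.05 (4.16%). The share of all genes is not given for the joint fit or for fits with a library left out. Leaving out a library gave 0 to 5, with 0 without WT primary library 3, 4 or 5, 5 without line 3 or line 5 and 2 without line 4. The other settings kept it within 1.5 times. In Prkd3-/- the count lower was 0 except with DESeq2 (1), and the count higher was 0 in every setting run in both genotypes. The interaction count was 0 except with DESeq2 (1). The replicate block changed no call in Prkd3-/- or in the interaction. In WT, Sema3d passed the thresholds in 1 of 6 fits with a library left out, Sema5a in 2 and Efnb3 in 3, with Log2FC values of -4.95 to -4.22, -2.07 to -1.80 and -2.85 to -2.59. The adjusted p-values over those fits were 0.00214 to 0.0541, 0.00152 to 0.0316 and 0.00368 to 0.0332, and over the other settings they reached 0.0831, 0.13 and 0.0978.

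Single genes changed direction in 9 fits. In Prkd3-/- Sema3e, at 0.06, was at -0.0031 with at least 10 counts in every library, -0.55 with limma, -0.88 with the replicate block, -0.44 with lines 13 and 13a summed, and between -0.74 and 0.41 with a library left out, including -0.13 without primary library 14, -0.07 without line 13a and -0.74 without line 13. Plxnd1 ranged from -0.13 (without Prkd3-/- line 14) to 1.37 with a library left out, and Ntn1 in WT from -0.15 (without line 5) to 1.998. With library size alone in place of TMM the median of all genes in WT moved from 0.04 to -0.10 and that of the guidance genes from -0.42 to -0.53, with 36 in place of 32 negative. The cause of these changes was not tested. Depth limits Ephb1, with 0 to 10 counts per library, Epha5, and Sema4a, with 5 to 22 counts in Prkd3-/- lines. The called gene Efnb3 had 17 to 28 counts in WT lines.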
